A study of Equus caballus with 4 samples.

Results

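The BCL2 family was examined in satellite cells of the horse, the stem cells of skeletal muscle, while they were differentiating into fibres. Of the 10 listed members, 7 were found by an exact match to a gene name on the array, among 24998 different gene names in all. They were BBC3, PMAIP1, BID, BAD, MCL1, BCL2 and BCL2L1, with 26 probes. The cells came from the semitendinosus muscle and were taken at day 3 of differentiation. The treated group was given gamma-oryzanol (GO, ferulic acid esters of plant sterols found in rice bran oil) for 24 h at a dose of 0.125 µM, with hydrogen peroxide (H2O2, 3 mM) added during the final 1 h. No GO was given to the control group. The labels do not say whether it received H2O2, while the study describes its control as incubated with H2O2. The study's methods state that the cultures came from a single primary cell line, chosen for its viability and fusion from muscle of several young stallions, so that the spread between replicates is that of cultures and not of animals. On each of the 4 two-colour arrays the treated RNA carried the red dye (Cy5) and the control RNA the green dye (Cy3). As the dyes were never exchanged, an effect of the dye and that of the treatment cannot be told apart. The label of the control channel carries the same replicate number on all 4 arrays, although the design text counts 4 control replicates. If the control was 1 sample, its own spread is missing from all errors given here.

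The BCL2 family decides whether the outer membrane of the mitochondrion is opened during apoptosis. BAX and BAK1 are the effectors that form the pores, while BCL2, BCL2L1 (BCL-XL) and MCL1 hold them back. The BH3-only proteins BBC3 (PUMA), PMAIP1 (NOXA), BID, BAD and BCL2L11 (BIM) report cell damage, either by blocking the protective members or by activating the effectors. In muscle the family is known to take part in the loss of myoblasts under oxidative stress and at the start of differentiation. Many members are controlled through protein binding, phosphorylation and cleavage, which transcript levels do not show.

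The probes of the family were 60 bases long, and several genes were covered by probes that almost coincide. The 5 probes of BBC3, the gene with the largest difference among the members, lay within chr10:17439108-17439171 on the minus strand of the EquCab1 build. They were shifted against each other by single bases and shared 56 bases, of which the first 30 are shown in lower case. The 5 probes of PMAIP1 were arranged in the same way within chr8:70078113-70078176 on the plus strand, and the capitals mark the 56 bases common to all 5. These probes are repeated measurements of a single site and not independent evidence.
BBC3: ctgtatatgcgctgctgtagataccggaat
PMAIP1: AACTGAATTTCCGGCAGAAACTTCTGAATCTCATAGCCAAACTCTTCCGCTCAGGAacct

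BID was represented by 2 transcript models with 5 probes each. A probe of both models started at the same base, chr6:27722084 on the plus strand. In the first model the 60 bases were unbroken (chr6:27722084-27722143), while in the second they were joined over a gap of 352 bases (chr6:27722084-27722495). The sequences of the pair are shown because they had the first 55 bases in common, and the capitals mark the remaining 5, which lie beyond the shared stretch. The other probes of each model start up to 4 bases further on and so hold a few more bases beyond it.
BID unbroken: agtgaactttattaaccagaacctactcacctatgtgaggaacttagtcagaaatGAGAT
BID spliced: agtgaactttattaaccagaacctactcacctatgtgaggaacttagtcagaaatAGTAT

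BCL2 and BCL2L1 each had a single probe, at chr8:72903395-72903454 and chr22:22722990-22723049, both on the minus strand. They are shown, all in lower case, because the comparison of protective and pro-apoptotic members is limited by their low signal.
BCL2: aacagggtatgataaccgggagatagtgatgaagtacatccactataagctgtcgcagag
BCL2L1: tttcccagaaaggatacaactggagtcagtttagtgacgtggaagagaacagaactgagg

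Values are log2 ratios of treated over control on each array, and values over 0 stand for more signal in the treated cells. The share of gene spots well above background ran from 54.9% to 61.3% per array for the control RNA, and from 56.7% to 61.4% for the treated RNA. Probes were tested if at least 1 channel lay well above background on each of the 4 arrays, the same channel throughout, and each gene is represented by the tested probe with the highest mean signal, called its brightest. The mean ratio was tested against 0 with limma over 24230 probes, with a Benjamini-Hochberg adjusted p-value under 0.05 as the threshold. Of the markers checked, all 5 named satellite cell and myoblast genes (MYF5, MYOD1, MYOG, DES and NCAM1) and all 6 named genes of differentiated muscle were well above background on every array in both channels. The 4 endothelial markers and the 2 named adipocyte markers were not above background on any array. The fibroblast genes COL3A1, THY1 and DCN and the leukocyte genes CD14 and CD68 were above background on all 4 arrays, while CD3E was on none. PDGFRA, the remaining named fibroblast gene, was above background on at most 2 arrays in the control channel and 1 in the treated channel. The part of other cell types in the results was not tested.

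BBC3 was the member that rose. Of the 10 listed members, 5 could be tested by their gene name, and 1 of these passed the threshold with a higher signal, while 9.93% of all 13692 genes tested did so. None passed with a lower signal (0 of 5, against 7.16% of all genes). None of the 5 had an unadjusted p-value under 0.05 with a lower signal by limma or by the methods' t-test. With a higher signal 2 did by limma, BBC3 and MCL1, and 1 did by the methods' t-test, MCL1. Of all 24230 probes tested, 8898 had such a p-value by limma and 6930 by the methods' t-test, in either direction. BBC3 was also the 1 member with a fold change of at least 1.3, the limit in the study's methods. Over all genes, 1.42% passed both this limit and the threshold in either direction. With 5 members tested, 1 call is a result about BBC3 and not about the family.

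**Figure D1:**
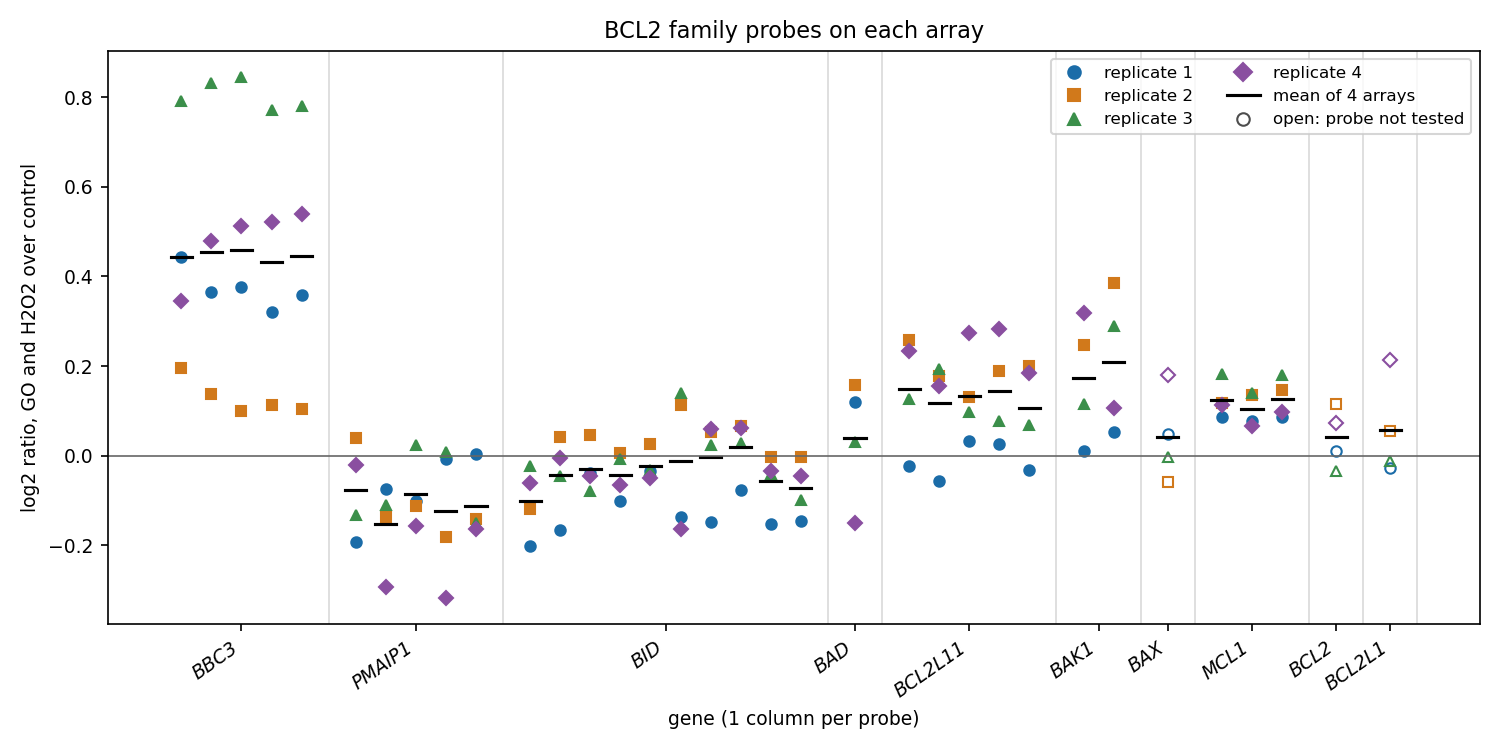
Log2 ratio of GO- and H2O2-treated over control cells (vertical axis) for every probe of the 10 listed members, 1 column per probe, grouped by gene. Points are the 4 arrays by replicate, black lines their mean, and open points belong to probes that were not tested. All 20 points of BBC3 lie above 0, between 0.10 and 0.85, while those of PMAIP1, BID and BAD lie on both sides of 0.

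BBC3 encodes PUMA, a BH3-only protein that binds every protective member. Its brightest probe had log2 ratios of 0.36, 0.10, 0.78 and 0.54 on replicates 1 to 4. All arrays were above 0, with replicate 3 the highest and replicate 2 the lowest. The mean was 0.45 ± 0.29 (SD, n = 4), a fold change of 1.36, with a 95% confidence interval of 0.20 to 0.69 and an adjusted limma p-value of 0.0348. In the deposited processed signals, which are linear and in arbitrary units, the control channel of this probe read 960, 730, 579 and 429 on replicates 1 to 4. The treated channel read 1249, 786, 1073 and 631. The treated signal was the higher of the pair on each array, by the widest margin on replicate 3, although the ranges of the channels over the arrays overlapped.

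**Figure D2:**
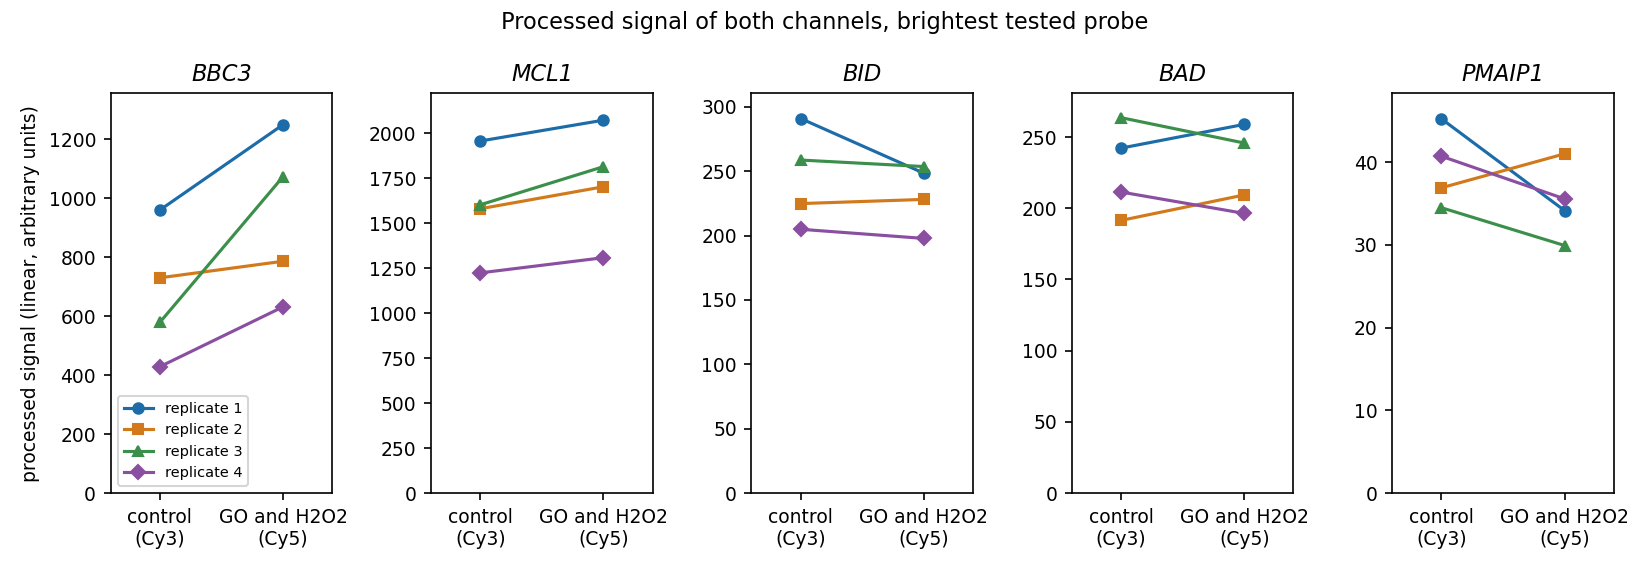
Deposited processed signal (vertical axes, linear, arbitrary units, each from 0) of the control channel (Cy3) and the treated channel (Cy5) for the brightest tested probe of 5 members. A line joins the channels of an array. The lines of BBC3 and MCL1 rise on all 4 arrays, and those of BID, BAD and PMAIP1 run in both directions.

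The other 4 probes of BBC3 gave mean log2 ratios from 0.43 to 0.46, and all 5 probes passed the threshold with adjusted p-values from 0.0288 to 0.0383. The overlapping probes differed little from each other. Averaged over the 5 probes, the ratio was 0.37, 0.13, 0.81 and 0.48 on replicates 1 to 4. The SD between probes within an array was 0.05 on average, whereas the SD between arrays was 0.28. The spread of BBC3 thus lay between arrays rather than between probes. It was also wide among the genes tested. The SD of the brightest probe was 0.29, against a median of 0.09 over all genes and 0.09 over the 1768 genes within 0.5 of its mean log2 signal, and 5.02% of all genes had a larger SD. Those 1768 genes had a median log2 ratio of 0.01. In size BBC3 ranked high, with 138 of the 13692 genes above it, while 1487 genes had a smaller p-value.

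The call for BBC3 depended on single arrays. Without replicate 2 the mean was 0.56 and the adjusted limma p-value 0.0161. Without replicate 1, 3 or 4 the mean was 0.48, 0.33 or 0.41, with adjusted p-values of 0.11, 0.0793 and 0.131. Over the whole table those 3 omissions left 2, 38 and 0 probes past the threshold out of 4137. With Agilent's processed signals the mean of BBC3 was 0.48 and the adjusted p-value 0.0619. The direction was the same in each of the 17 settings run.

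**Figure D3:**
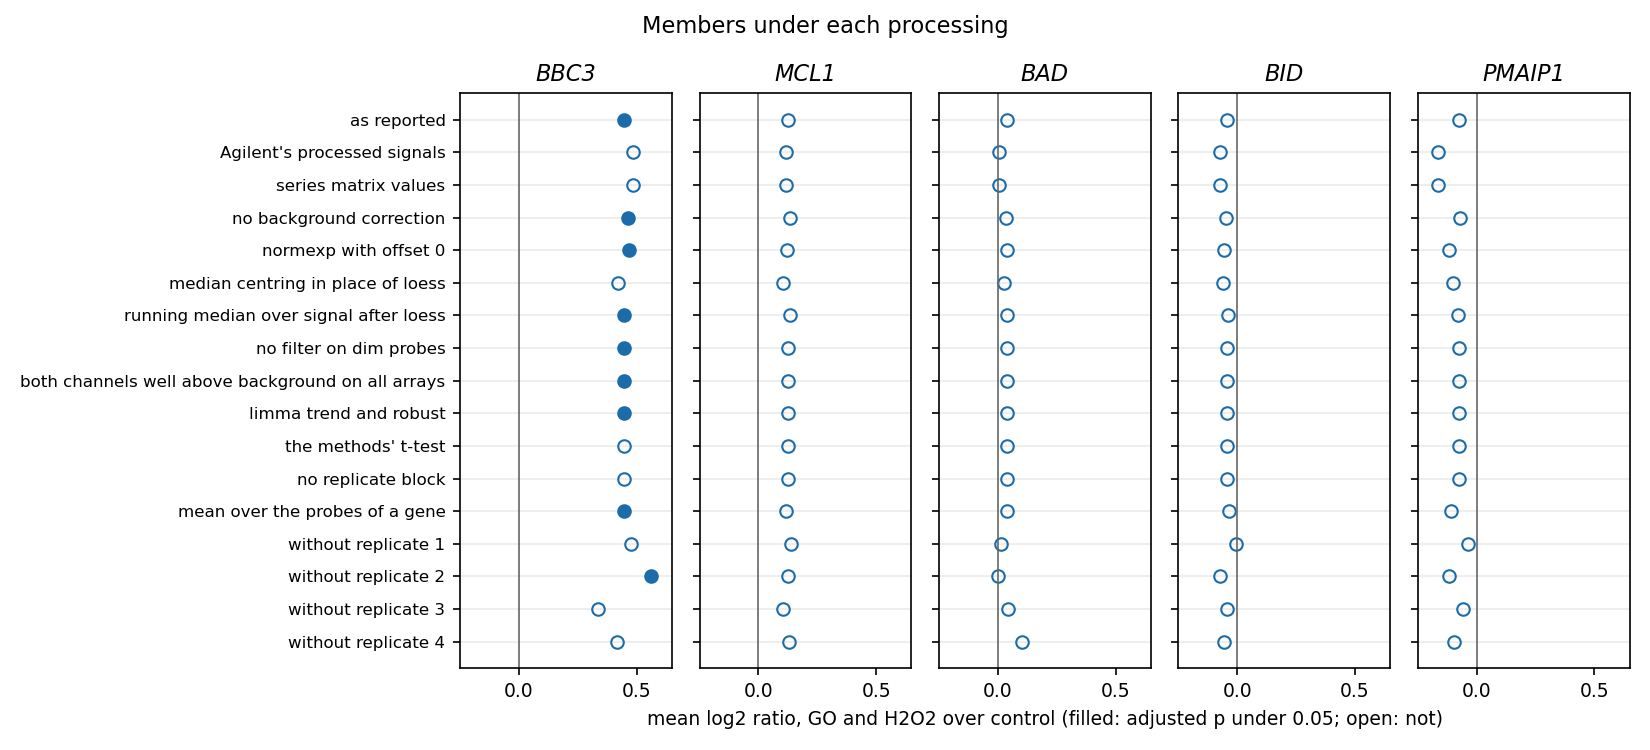
Mean log2 ratio of treated over control cells (horizontal axes) of the 5 tested members under each processing (rows). Filled points passed the adjusted threshold and open points did not. BBC3 stays between 0.33 and 0.56 and passes in 9 of 17 settings, whereas MCL1, BAD, BID and PMAIP1 pass in none.

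PMAIP1 encodes NOXA, a BH3-only protein that binds mainly MCL1. Its brightest probe had log2 ratios of −0.19, 0.04, −0.13 and −0.02 on replicates 1 to 4. The arrays lay on both sides of 0, with a mean of −0.08 ± 0.11 (SD, n = 4) and an adjusted limma p-value of 0.311. The other probes had means down to −0.15, all 5 means were below 0, and the adjusted p-values ranged from 0.071 to 0.311. None passed the threshold. Without adjustment 2 of the 5 had a limma p-value under 0.05, as did 8898 of all 24230 probes tested, in either direction. In contrast to BBC3, the probes of PMAIP1 scattered more between each other than the arrays did. The mean SD between probes within an array was 0.09, and the SD between arrays of the averaged probes was 0.06. On replicate 4 alone the 5 overlapping probes ran from −0.32 to −0.02. The signal of this gene was low (mean log2 signal 7.01), and 2 of its probes missed the background limit in the treated channel of replicate 4.

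BID links the death receptors to the mitochondrion, since caspase-8 cleaves it into its active form. Its brightest probe had log2 ratios of −0.17, 0.04, −0.04 and −0.01 on replicates 1 to 4. Replicate 1 was the lowest and the mean of −0.04 ± 0.09 (SD, n = 4) had an adjusted limma p-value of 0.53. None of the 10 probes passed the threshold (adjusted p-values from 0.152 to 0.969), and their means ran from −0.10 to 0.02. The 2 transcript models did not separate. The 5 unbroken probes averaged −0.11, −0.00056, −0.04 and −0.05 on replicates 1 to 4, and the 5 spliced probes averaged −0.13, 0.05, 0.01 and −0.02. The difference of unbroken minus spliced was −0.02 ± 0.03 (SD, n = 4), smaller than its spread. As 55 of 60 bases are common to the pair shown above, both sets may read the same transcripts.

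BAD, a BH3-only protein held inactive by phosphorylation and by binding to 14-3-3 proteins, had a single probe at chr12:14940469-14940528. Its log2 ratios were 0.12, 0.16, 0.03 and −0.15 on replicates 1 to 4. Replicate 4 lay on the other side of 0 from the rest. The mean was 0.04 ± 0.14 (SD, n = 4), with a 95% confidence interval of −0.10 to 0.18 and an adjusted limma p-value of 0.657.

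MCL1 is a short-lived protective member that binds BAK1 and several BH3-only proteins. It was the only listed protective member that could be tested. Its brightest probe had log2 ratios of 0.09, 0.12, 0.18 and 0.11 on replicates 1 to 4. All arrays were above 0 and lay close together, with a mean of 0.12 ± 0.04 (SD, n = 4), a fold change of 1.09 and an adjusted limma p-value of 0.0697. Ratios above 0 on all 4 arrays were found for 23.4% of all genes tested. The 3 probes of MCL1, placed 30 bases apart on an unplaced sequence, had means from 0.10 to 0.13, and their 12 values were all above 0. The adjusted p-values ran from 0.0673 to 0.103, so that no probe passed. The unadjusted p-value of the brightest probe was 0.0162.

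BCL2 and BCL2L1 were too dim to test. BCL2, the founding protective member, was well above background in both channels on replicates 1 and 2 and in neither on replicates 3 and 4. Its log2 ratios on replicates 1 and 2 were 0.01 and 0.11. BCL2L1 encodes the protective BCL-XL and its shorter pro-apoptotic splice form. It was well above background in both channels on replicates 1 and 2, with log2 ratios of −0.03 and 0.05, and on replicate 4 in the treated channel alone, with 0.21. With no filter the adjusted limma p-values were 0.546 for BCL2 and 0.469 for BCL2L1. A difference in either gene was not detectable at this signal.

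The pro- and anti-apoptotic members were then compared on each array, as a description without a test. The median log2 ratio of the 4 tested pro-apoptotic members was −0.02, 0.07, −0.01 and −0.01 on replicates 1 to 4. MCL1 alone stood for the protective side and was above this median on all 4 arrays. The pro- minus anti-apoptotic difference was −0.11, −0.04, −0.19 and −0.13, with a mean of −0.12 ± 0.06 (SD, n = 4). The median hides BBC3, which differed from the other BH3-only members. BBC3 minus MCL1 was 0.27, −0.01, 0.60 and 0.43 on the 4 arrays. PMAIP1 minus MCL1 was −0.28, −0.08, −0.31 and −0.13. BBC3 and PMAIP1 thus lay on opposite sides of MCL1 on replicates 1, 3 and 4, but not on replicate 2.

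**Figure D4:**
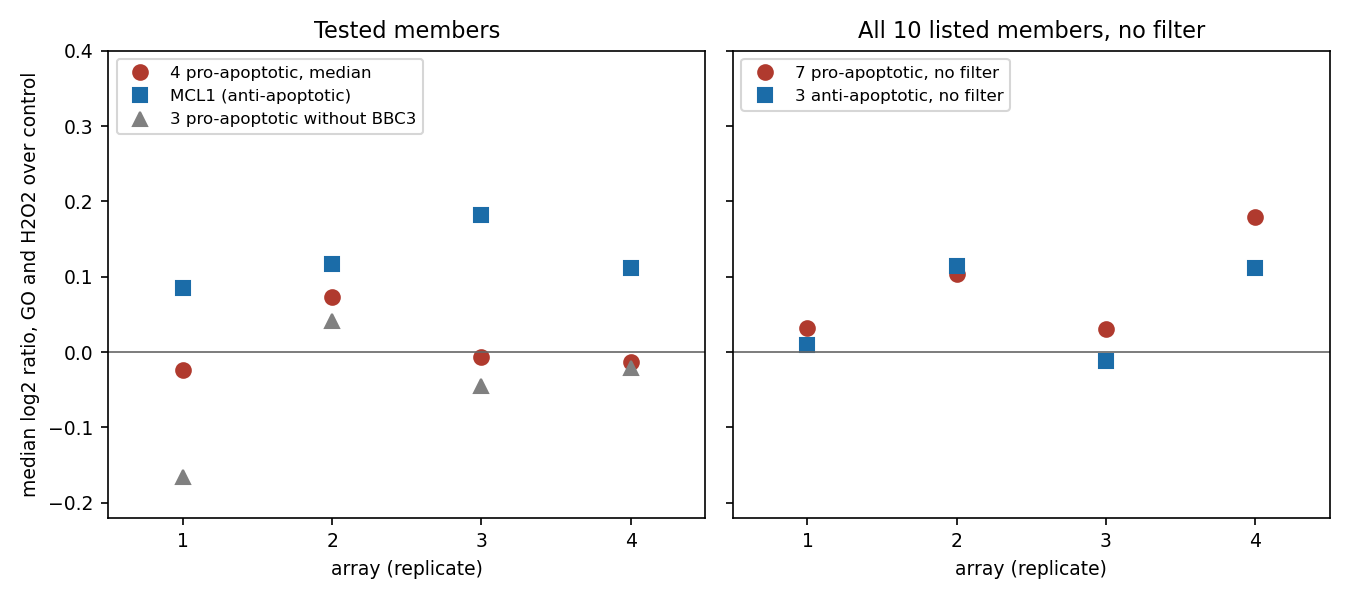
Median log2 ratio of treated over control cells (vertical axis) on each array (horizontal axis) for pro-apoptotic members (circles), protective members (squares) and pro-apoptotic members without BBC3 (triangles). Left, the 5 tested members, with MCL1 above the pro-apoptotic median on all 4 arrays. Right, all 10 listed members with no filter, dim probes included, where the pro-apoptotic median is the higher on 3 of 4 arrays. On the right, the circle of array 4 is the reading of BAX and the square of array 3 that of BCL2L1. Neither probe was well above background there.

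The difference rested on which members were measured. Without BBC3 it was −0.17 ± 0.08 (SD, n = 4). With no filter, and so with BCL2 and BCL2L1 on the protective side, it shrank to −0.05 ± 0.06. BAX, BAK1 and BCL2L11 are not on the array under these names, but 8 probes carry them in the description or through the gene ID, and these were examined beside the rule. With the tested ones among the pro-apoptotic members, 6 against MCL1, the difference was −0.04 ± 0.06, with 2 of 4 arrays above 0. With both sides widened, 7 against 3 and dim probes included, the direction turned. The difference was then 0.02, −0.01, 0.04 and 0.07 on replicates 1 to 4, with a mean of 0.03 ± 0.03 (SD, n = 4). On replicate 4 the pro-apoptotic median was the reading of BAX, and on replicate 3 the protective median was that of BCL2L1. Neither probe was well above background in either channel there, so the turn rests in part on dim readings. The sign of the difference is therefore not settled by these arrays. On replicates 1 and 2, where the probe of BCL2L1 was above background in both channels, BAD minus BCL2L1 was 0.15 and 0.10, and BCL2L11 minus BCL2L1 was 0.06 and 0.08.

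The 2 effectors and BCL2L11 added no call. BAK1 had 2 probes at chr20:27352095-27352156 on the minus strand. The brighter gave log2 ratios of 0.01, 0.25, 0.12 and 0.32 on replicates 1 to 4, all above 0. Its mean was 0.17 ± 0.14 (SD, n = 4), with an adjusted limma p-value of 0.0844. The signal of this probe was low (mean log2 signal 7.06). Over 17 settings the mean of BAK1 ran from 0.10 to 0.43, and it passed in 0 of them. The other probe had a mean of 0.21 and an adjusted limma p-value of 0.0658, and it missed the background limit in the control channel of 2 arrays. BCL2L11, which encodes BIM, was covered by 5 overlapping probes that span a gap in the genome between chr15:10824824 and chr15:10837683 on the plus strand. Its brightest probe gave 0.03, 0.13, 0.10 and 0.27, with a mean of 0.13 ± 0.10 (SD, n = 4) and an adjusted limma p-value of 0.107. The 5 probes had means from 0.11 to 0.15, and 17 of their 20 values were above 0. BAX had 1 probe, on an unplaced sequence, which was not well above background on any array in either channel, so that no ratio of it is given.

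Of a further list of genes related to the BCL2 family, not all of them homologues of BCL2, 2 of 8 tested rose and none fell. On this list 15 were entered and 11 were named on the array. Over all genes tested 9.93% rose and 7.16% fell. BCL2L2 encodes BCL-W, a further protective member. Its log2 ratios were 0.83, 0.09, 0.27 and 0.46 on replicates 1 to 4, with a mean of 0.41 ± 0.31 (SD, n = 4) and an adjusted limma p-value of 0.0491. Replicate 1 was the highest, and without it the mean was 0.28. Both of its probes passed, and averaged over them the mean was 0.29. The call was not stable, as BCL2L2 passed in 5 of 17 settings, with means above 0 in all 17. BNIP2 rose by 0.19 ± 0.07 with an adjusted limma p-value of 0.0348, and 1 of its 2 probes passed. The median of the 8 genes was 0.01, as was that of all 13692 genes tested.

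Of the partners and modifiers of the family, 2 of 21 tested rose (9.52%, against 9.93% of all genes) and 1 fell (4.76%, against 7.16%), shares near those of all genes. BAG1, a co-chaperone that binds BCL2, had log2 ratios of 0.24, 0.19, 0.17 and 0.18 on replicates 1 to 4. The arrays lay close together, with a mean of 0.20 ± 0.03 (SD, n = 4) and an adjusted limma p-value of 0.0248. AKT1, a kinase that phosphorylates BAD, had a mean of 0.18 ± 0.08 and an adjusted limma p-value of 0.041. CASP8, the protease that cleaves BID, fell by 0.16 ± 0.07 on the log2 scale (adjusted limma p-value 0.0466). Of its 2 probes 1 passed, and the mean of the other did not have the same sign. Averaged over both probes the ratio of CASP8 was −0.08 with an adjusted limma p-value of 0.209. The 14-3-3 genes that were tested, the voltage-dependent anion channel genes and the dynein light chain genes did not pass. The median of the list was −0.03.

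The transcription factors of the BH3-only genes included 1 of 7 that rose and none that fell, against 9.93% and 7.16% of all genes. FOXO1, a stress-responsive factor known to activate BCL2L11, had a mean of 0.14 ± 0.04 and an adjusted limma p-value of 0.0497, at the edge of the threshold. The probes of FOXO3 differed in their calls. Its brightest did not pass (mean 0.08, adjusted limma p-value 0.367), while 3 of its 9 tested probes did, and all 9 means were above 0. In the list of DNA damage response genes, 2 of 11 rose and 1 fell, against 9.93% and 7.16% of all genes. ZMAT3 rose by 0.15 ± 0.02 with all 3 probes past the threshold. CCNG1 (cyclin G1) had log2 ratios of −0.30, −0.57, −0.14 and −0.61 on replicates 1 to 4 and fell by 0.40 ± 0.23 on the log2 scale, with 1 of its 2 probes past the threshold. The adjusted limma p-values of ZMAT3 and CCNG1 were 0.0384 and 0.0287. CDKN1A, an inhibitor that arrests the cell cycle, had values on both sides of 0 (−0.18, 0.0034, 0.07 and 0.03) and an adjusted limma p-value of 0.822. MDM2 was not tested, as it did not pass the filter. Of the 11 means 4 were above 0, and the median was −0.01.

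Downstream of the family, none of the 12 tested genes of mitochondrial release and the apoptosome passed the threshold with limma. Without adjustment 2 had a limma p-value under 0.05, among them BIRC3 with a mean log2 ratio of −0.16 ± 0.10, and 2 had one by the methods' t-test. The means of 3 of the 12 genes were above 0 and the median was −0.06. Cytochrome c (CYCS) had a mean of −0.12 ± 0.12. The 9 genes of these lists that passed each lost the call when replicate 1, 3 or 4 was left out, and 5 of them did so without replicate 2.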

How the data were processed

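Arrays of treated (Cy5) against control (Cy3) RNA were hybridised by the authors on 1 slide and read in 1 scan. Per the file headers, the deposited spot intensities were made by the authors with version 10.10.1.1 of Agilent's Feature Extraction. The authors' deposited series matrix holds log10 ratios equal to those of the scanner files (largest difference 0).

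Mean intensities were corrected with normexp (offset 50) and loess within each array, with control spots at weight 0. Control spots and outlier spots (7 to 16 gene spots per array) were left out, and repeated spots were averaged by probe. Saturation was marked at 0 gene spots. The filter on background left 24230 of 43603 gene probes (55.6%). Ratios were tested against 0 in a two-sided limma test (version 3.58.1 under R 4.3.3; functions lmFit and eBayes), and p-values were adjusted over all probes tested by Benjamini-Hochberg. The number of arrays limits the precision.

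The members and lists were chosen with earlier results of these data known. Named were all members, up to 4 genes per list past the threshold with the smallest p-values, and CDKN1A and MDM2 whatever their values. BIRC3, CYCS and FOXO3 were named after their values were seen. Some genes of the lists are not reported here, among them 1 that rose and would be named by this rule. Alternatives were other background corrections and normalisations, other filters, other tests, the mean over probes and leaving out each replicate. Sequences and positions are those of the array files (EquCab1). Whether a probe lies in an exon, intron or UTR was not determined, as an annotation of EquCab1 was not used here. BAK1 was matched by its gene ID to a RefSeq gene table, and BAX and BCL2L11 by the probe description.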

Additional observations from a re-analysis of the deposited data

Results flagged for a closer look

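In 4 of the 50 sets of values examined, 1 array stood apart from the other 3 by Dixon's criterion, which chance meets in about 1 of 20 sets. For 1 probe of PMAIP1 replicate 1 was at 0.00424 while the others lay between −0.17 and −0.14. For 1 spliced probe of BID replicate 1 was at −0.15 and the others lay between 0.02 and 0.06. For 1 probe of BCL2L11 replicate 1 was at −0.0562 and the others lay between 0.15 and 0.19. No other probe of these 3 genes met the criterion. The median of the 4 tested pro-apoptotic members was 0.0726 on replicate 2 and between −0.02 and −0.01 on the other arrays. None of the 5 probes of BBC3 met the criterion.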

How the results depend on the processing

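The number of members past the threshold with a higher signal was 1, BBC3. It was 0 with the signals as processed by Agilent's software, with the series matrix, with median centring in place of loess, by the methods' t-test, and without the pairing of channels on an array (no replicate block). The mean of BBC3 in these settings was 0.48, 0.48, 0.42, 0.45 and 0.45, with adjusted p-values of 0.0619, 0.0619, 0.63, 0.179 and 0.199. The pairing of channels is that of the hybridisation. Without single replicates the count ran from 0 to 1 and the mean from 0.33 to 0.56. No member passed with a lower signal in any setting (0). The mean of BAD was −9.5e-05 without replicate 2 and positive otherwise, with 0.10 as the highest value over single omissions. The pro- minus anti-apoptotic difference was −0.0488 with no filter on dim probes and −0.0400 with BAK1 and BCL2L11, an alternative added after seeing the data. It turned to 0.0304 with both of these together and BAX, also added after seeing the data. That setting includes readings of BAX and BCL2L1 that were not well above background. In the other settings run the difference was below 0. Of the other lists, 9 genes passed, against 5 with normexp at offset 0, 4 with a running median over signal, and 0 with median centring, the methods' t-test or no replicate block, and from 0 to 8 without single replicates. CDKN1A turned to 0.0117 with Agilent's processed signals and the series matrix, and ran from −0.0485 to 0.0361 without single replicates, the highest being that without replicate 1. With the methods' t-test no member passed both its p-value and fold change limits, before or after Benjamini-Hochberg adjustment (0 and 0). BBC3 had an unadjusted p-value of 0.0525 by that test. MCL1, below the fold change limit, was the 1 member with an unadjusted p-value under 0.05. By the methods' t-test the adjusted p-value of MCL1 was 0.0968, against 0.179 for BBC3. The cause of these differences was not tested. Low signal limits BAX, BAK1, BCL2, BCL2L1 and PMAIP1.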
